A study of Mus musculus with 4 samples.

Results

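Mitochondrial ribosomal proteins were examined in CD11b+ spleen cells of mice. The genes were those whose platform symbol starts with Mrpl or Mrps and a digit, without pseudogenes. Where a gene had several probe sets annotated to it alone, the brightest on average was used, which gave 76 genes of 18193 measured. The 4 arrays (Affymetrix MOE430 2.0) each held total RNA pooled from 5 mice. There were 2 pools of mice exposed repeatedly to social threat (labelled HighThreat) and 2 pools of control mice (labelled LowThreat). The labels give no strain, age, sex, duration of exposure or array batch, and pooling hides the spread between mice. With 1 array per pool, every p-value below rests on the spread between 2 pools a group. The main fit drew that spread towards that of probe sets of like level, which weighed more (7.1 prior against 2 residual degrees of freedom). Values are log2 levels as deposited, and differences are social threat minus control.

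Mitochondria translate the few messages of their own genome, all for core subunits of the respiratory chain and ATP synthase, on ribosomes of their own. The RNAs of these ribosomes come from mitochondrial DNA. All of their proteins are encoded in the nucleus, made in the cytosol and imported. Some descend from bacterial ribosomal proteins, and others exist only in mitochondria. Splenic CD11b+ cells are mostly neutrophils, monocytes and macrophages, and mature neutrophils are known for few mitochondria and a largely glycolytic metabolism.

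The pools also differed in the cells or states their markers report. CD11b+ myeloid genes were bright in every pool, with a mean level over 10 genes of 12.22 to 12.3 in controls and 12.34 to 12.35 under social threat. In that list 4 genes rose and 3 fell, among the latter Csf1r (-0.26), Cd68 (-0.34) and Csf3r (-0.14). The cells carried Itgam, which encodes CD11b, at 10.74 ± 0.38 in controls and 11.62 ± 0.04 under social threat (SD, n = 2). Neutrophil precursor markers rose for 9 of 9, with a mean level of 8.92 to 9.03 in the control pools and 11.8 to 11.85 in the social threat pools. Cell cycle genes rose for 17 of 19 (7.26 to 7.33 against 8.83 to 8.91), erythroid genes for 6 of 9 (5.52 to 5.58 against 6.94 to 6.96) and platelet genes for 5 of 6 (6.12 to 6.19 against 6.91 to 6.93). Lower levels were called for 6 of 7 B cell genes (8.49 to 8.52 against 7.43 to 7.51), 8 of 8 T cell genes (7.2 to 7.26 against 6.13 to 6.16), 4 of 6 NK cell genes (7.16 to 7.21 against 6.44 to 6.45) and 7 of 7 conventional dendritic cell genes (8.52 against 7.33 to 7.39). In the control pools Hemgn and Rhag of the erythroid list, at 3.87 and 3.43, lay below the array median of 4.42, and Xcr1 of the dendritic list was at it. The part of these cells in the levels of the members was not tested. In pooled cells, a changed share of a cell type and a changed level per cell cannot be told apart.

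As a family the mitochondrial ribosomal proteins did not move one way, while 11 single genes differed between the groups. Limma called 6 of 76 higher (7.89%) and 5 lower (6.58%) at an adjusted p under 0.05, and 65 were not called. Over all 18193 genes read in the same way, 9.4% were called higher and 11.7% lower. Of all 45037 probe sets, 15.8% were called in either direction. Every member lay above the median probe set, with mean levels from 5.74 to 10.04. Among the 7300 genes in that range of levels, 35.1% were called, against 14.5% of the members. At an unadjusted p under 0.05, 11 members were higher and 16 lower. The counts moved when single pools were left out. A fit without 1 pool takes the spread of a gene between pools from the other group alone. A call can thus be lost though the difference hardly moves. For Mrpl38 the difference was -0.514 with all pools, -0.505 without social threat pool 1 and -0.524 without social threat pool 2. There were 11 higher and 5 lower without control pool 1, 6 and 13 without control pool 2, 4 and 2 without social threat pool 1, and 5 and 2 without social threat pool 2.

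The median difference of the members was -0.03, beside -0.02 over all genes and -0.05 over genes in the members' range of level. Differences ran from -0.73 for Mrps6 to 0.74 for Mrpl44, and the members lay closer together than other genes of like level. Their SD was 0.236 over the 76 members and 0.479 over genes in the same range. The median level of the members was 8.36 and 8.25 in the control pools and 8.33 and 8.30 in the social threat pools. By this median the social threat pools lay between the control pools. The mean level was 8.311 and 8.211 in the control pools and 8.266 and 8.21 in the social threat pools, so social threat pool 2 was level with control pool 2. Control pool 1 was above control pool 2 for 67 of 76 members, by a median of 0.10, which is more than the median difference between the groups. Among genes in the same range, 68.1% were higher in control pool 1, by a median of 0.06. Without control pool 1 the median difference of the members was 0.02, and without control pool 2 it was -0.07. For the 65 members not called, differences ran from -0.34 (Mrps27) to 0.25 (Mrpl45). The 95% interval of the difference lay within 1.5-fold in both directions for 64 of them.

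**Figure D1:**
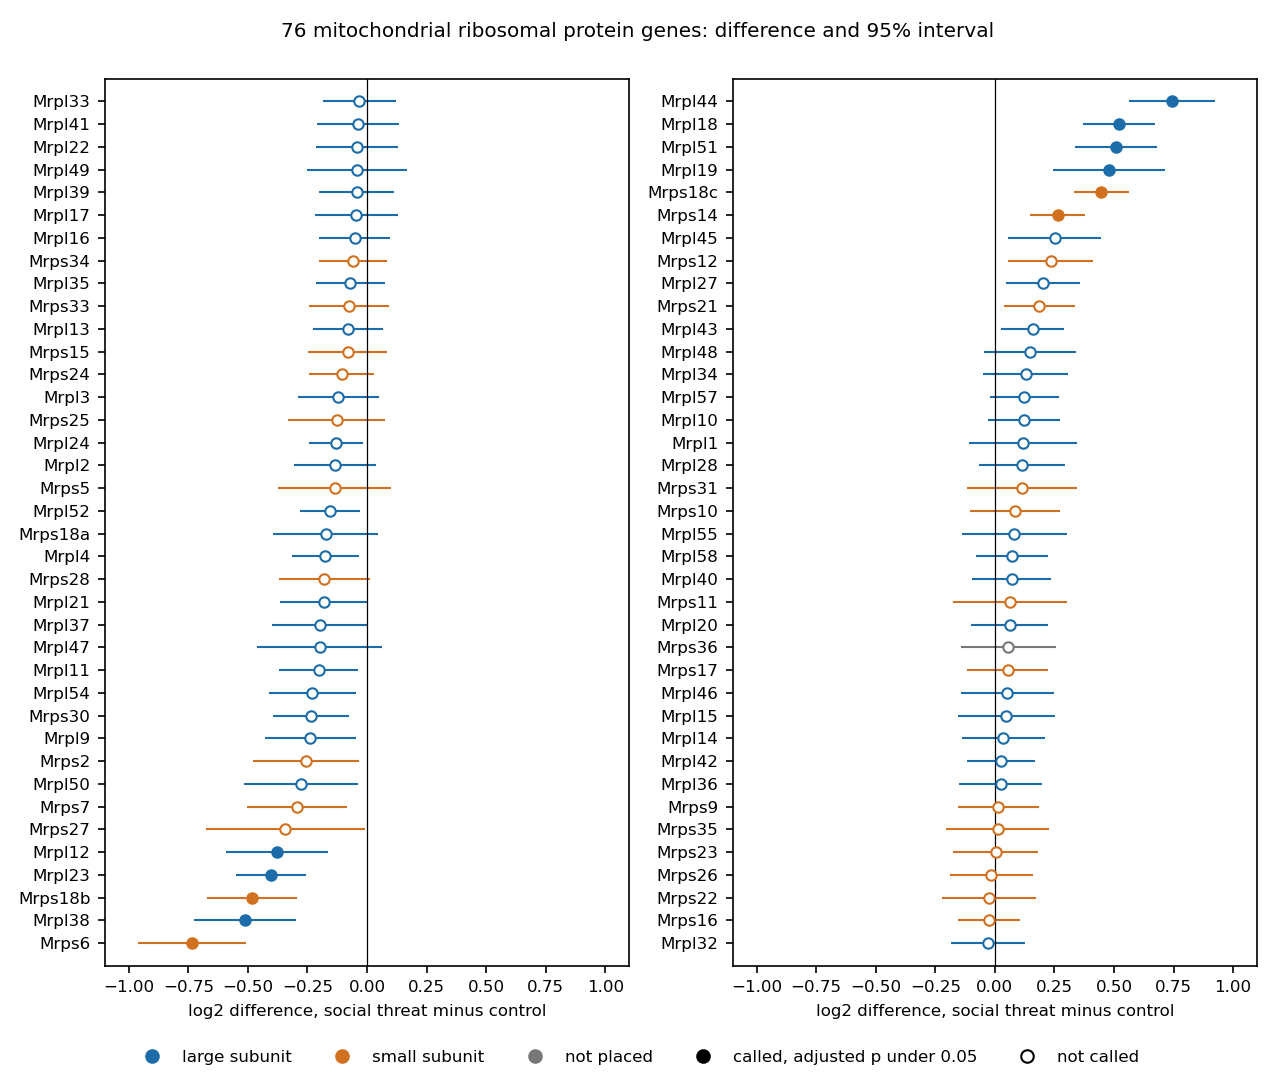
Each of the 76 members is shown by its log2 difference, social threat minus control (x axis), with its 95% interval from limma, in order of size. Filled points mark the 11 called members. The others scatter on both sides of 0, from -0.34 to 0.25, with large subunit genes (blue) and small subunit genes (orange) mixed.

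By whether pools overlapped, both social threat pools stood above both control pools for 20 members and below them for 28, and 28 overlapped. Over all genes, 26.1% stood above and 32.1% below. The subunits were alike. In the large subunit 4 of 49 members rose and 3 fell, with a median of -0.04, and in the small subunit 2 of 26 rose and 2 fell, with a median of -0.02. The difference between the subunits was not tested, since their genes share the same 4 arrays. Mrps30 and Mrps18a are counted with the large subunit, where their proteins sit despite their names. Mrps36, whose protein is now known as a part of the 2-oxoglutarate dehydrogenase complex, was placed in neither.

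By origin, members with a bacterial counterpart and members particular to mitochondria gave like counts. Among large subunit members with a bacterial counterpart, 2 of 29 rose and 2 fell (median -0.04). Among those specific to mitochondria 2 of 20 rose and 1 fell (median -0.01). In the small subunit, 2 of 16 members with a counterpart rose and 1 fell (median -0.01), and of the 10 specific to mitochondria 0 rose and 1 fell (median -0.04). Mrps18a and Mrps18b, of the S18 family, were counted as specific to mitochondria though bacteria have an S18. Mrps18b was the 1 of the 10 that fell.

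The largest rise was that of Mrpl44, a large subunit protein with the fold of a ribonuclease near the exit of the nascent chain. It stood at 7.33 and 7.41 in the control pools and at 8.11 and 8.12 in the social threat pools. The pools of a group lay close together and the groups were far apart. The difference was 0.74 (SE 0.08), or 1.67-fold, with a limma adjusted p of 0.000213. All 4 probe sets of Mrpl44 rose, by 0.42 to 0.83. Mrpl18, the counterpart of bacterial L18 in the central protuberance at the top of the large subunit, stood at 8.33 and 8.34 in controls and at 8.82 and 8.89 under social threat. It rose by 0.52 (SE 0.07, limma adjusted p = 0.000619) and has 1 probe set.

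Mrpl51, a large subunit protein found only in mitochondria, stood at 9.17 and 8.96 in the control pools and at 9.61 and 9.54 in the social threat pools. It rose by 0.51 (SE 0.08, limma adjusted p = 0.00161). Its other probe sets, at 3.37 and 3.97 in controls, lay below the array median and were not called. With all its probe sets averaged the difference was 0.18 and was not called (adjusted p = 0.156). Mrpl19, the counterpart of bacterial L19 near the interface of the subunits, stood at 7.102 and 6.998 in controls and at 7.65 and 7.41 under social threat, and rose by 0.48 (SE 0.10). Its second bright probe set differed by 0.26 and was not called, and the mean of its probe sets by 0.24 (adjusted p = 0.0594). Without social threat pool 1 the difference of Mrpl19 was 0.36 (adjusted p = 0.216).

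Of the small subunit, Mrps14, the counterpart of bacterial S14 in the head of the subunit, rose by 0.26 (SE 0.05). Its levels were 9.87 and 9.82 in controls and 10.14 and 10.08 under social threat, so the groups did not overlap. Its call was lost without social threat pool 1 (adjusted p = 0.156) and without social threat pool 2 (adjusted p = 0.0662). It was lost without the variance trend too (adjusted p = 0.106), and with all probe sets averaged the difference was 0.14 (adjusted p = 0.187). A second probe set of Mrps14 above the array median, at 6.375 in controls and 6.398 under social threat, differed by 0.023 and was not called. Mrps12, the counterpart of S12 at the decoding site, stood at 8.276 and 8.157 in controls and at 8.503 and 8.398 under social threat. Its difference of 0.23 (SE 0.08) was not called, with an adjusted p of 0.081. It was called without control pool 1 (adjusted p = 0.0295), with only probe sets above the array median (0.047) and with 1 averaged value a gene (0.0339).

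The largest fall was that of Mrps6, the counterpart of bacterial S6 on the platform of the small subunit. It stood at 6.91 and 6.84 in the control pools and at 6.09 and 6.19 in the social threat pools. The difference was -0.73 (SE 0.10, limma adjusted p = 0.000896). Its second probe set fell by 0.85, also with every social threat pool below every control pool. Mrpl38, a protein of the central protuberance found only in mitochondria, stood at 7.16 and 7.05 in controls and at 6.58 and 6.60 under social threat. It fell by 0.51 (SE 0.10, adjusted p = 0.00511). Its other probe sets, at 4.095 and 5.104 in controls, differed by 0.045 and -0.086 and were not called. The second of these lay above the array median of 4.42. The mean of all probe sets of Mrpl38 differed by -0.19 (adjusted p = 0.161). The call of Mrpl38 was lost without social threat pool 1 (adjusted p = 0.0873) or 2 (adjusted p = 0.0791). Within the same central protuberance, Mrpl18 rose and Mrpl38 fell.

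Mrpl23, the counterpart of bacterial L23 at the mouth of the peptide exit tunnel, stood at 9.22 and 9.11 in controls and at 8.75 and 8.77 under social threat. It fell by 0.41 (SE 0.07, limma adjusted p = 0.00231), with 1 probe set, and its call was lost without social threat pool 1 (adjusted p = 0.0569). Of the 8 members at the peptide exit, Mrpl44 rose, Mrpl23 fell and 6 were not called, with a median of -0.05. Mrpl12 forms the flexible stalk that recruits translation factors and has been found bound to the mitochondrial RNA polymerase. It stood at 8.10 and 7.88 in controls and at 7.66 and 7.56 under social threat, a fall of 0.38 (SE 0.10, adjusted p = 0.0241). This call was lost without control pool 1 (-0.27, adjusted p = 0.0635), social threat pool 1 (adjusted p = 0.126) or social threat pool 2 (adjusted p = 0.259), and without the variance trend (adjusted p = 0.0782).

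The other proteins at the base of the stalk did not follow one direction. Mrpl10, which anchors Mrpl12, stood at 8.515 and 8.498 in controls and at 8.64 and 8.61 under social threat (difference 0.12, SE 0.07, adjusted p = 0.295). Mrpl11 stood at 8.66 and 8.55 in controls and at 8.44 and 8.37 under social threat (difference -0.20, SE 0.07). It was not called (adjusted p = 0.103), except without control pool 2, where the difference was -0.26 (adjusted p = 0.0326). For both genes the groups did not overlap. Of the 4 members on the path of the messenger and at the decoding site 0 were called by limma, with a median of -0.12. At an unadjusted p under 0.05, 1 was higher (Mrps12) and 1 lower (Mrps2).

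**Figure D2:**
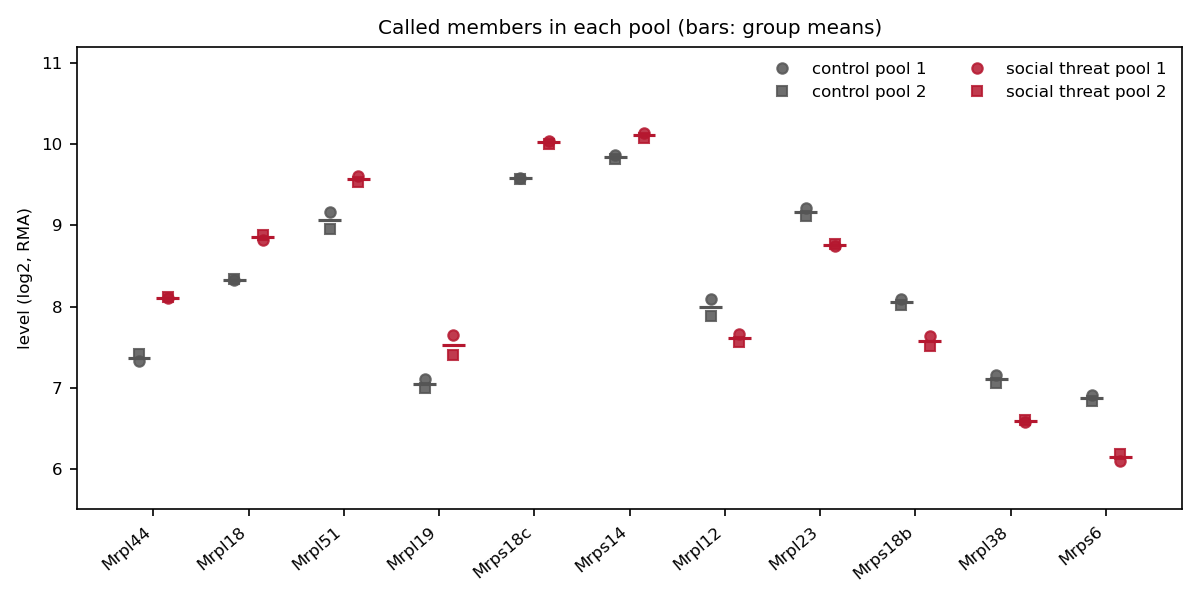
Levels (log2, y axis) of the 11 called members in each of the 4 pools are shown, grey for control and red for social threat, with bars at the group means. In every gene shown the groups are separated, and the gap is widest for Mrpl44 (0.74) and Mrps6 (-0.73).

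The S18 family, in which mammals have several mitochondrial proteins for 1 bacterial S18, split by gene. Mrps18c, the copy in the bacterial position of the small subunit, stood at 9.59 and 9.57 in controls and at 10.05 and 10.01 under social threat. It rose by 0.45 (SE 0.05, limma adjusted p = 0.000293). Mrps18b, also of the small subunit, stood at 8.10 and 8.02 in controls and at 7.64 and 7.52 under social threat. It fell by 0.48 (SE 0.08, adjusted p = 0.00352), and the call was lost without social threat pool 2 (-0.42, adjusted p = 0.0925). Mrps18a, of the large subunit, stood at 8.36 and 8.09 in controls and at 8.02 and 8.08 under social threat. Its difference of -0.17 (SE 0.10) was not called (adjusted p = 0.313), and without control pool 2 it was -0.31 (adjusted p = 0.0176). Each of the 3 genes has 1 probe set, and a test of one against another was not made.

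The start regions of the S18 genes that moved in opposite directions are shown to compare their letters. They run from 250 bases before to 50 bases after the start of the gene (RefSeq, GRCm38.p6), 5′ to 3′ on the strand of the gene. Capitals mark matches to the 7 short motifs described further on. The window of Mrps18b lies at chr17:35916391-35916690, minus strand, and that of Mrps18c at chr5:100798509-100798808, plus strand.
Mrps18b: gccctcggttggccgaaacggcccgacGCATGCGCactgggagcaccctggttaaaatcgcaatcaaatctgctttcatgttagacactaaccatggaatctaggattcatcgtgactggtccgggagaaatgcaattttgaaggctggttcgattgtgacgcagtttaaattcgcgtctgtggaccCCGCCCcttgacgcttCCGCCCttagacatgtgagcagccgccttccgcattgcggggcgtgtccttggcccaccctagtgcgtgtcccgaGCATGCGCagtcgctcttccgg
Mrps18c: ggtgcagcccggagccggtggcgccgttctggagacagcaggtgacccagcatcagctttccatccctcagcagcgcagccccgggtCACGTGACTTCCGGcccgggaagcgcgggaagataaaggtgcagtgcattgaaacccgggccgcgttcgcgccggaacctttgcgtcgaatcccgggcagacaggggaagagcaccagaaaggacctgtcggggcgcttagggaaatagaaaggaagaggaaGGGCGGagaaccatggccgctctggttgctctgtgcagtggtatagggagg
The Mrps18b window held the NRF1 core at bases 28 to 35 and 279 to 286 and the GC box at bases 188 to 193 and 204 to 209. That of Mrps18c held an E-box at bases 88 to 93, the ETS motif at bases 94 to 101 and a GC box at bases 250 to 255.

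Windows of Mrpl51, a member that rose, and of Mrps6, the member with the largest fall, are given for the same comparison. Mrpl51 was picked by no rule and did not have the largest rise. The windows shown thus do not stand for all called members. They lie at chr6:125191950-125192249, plus strand, and at chr16:92058086-92058385, plus strand.
Mrpl51: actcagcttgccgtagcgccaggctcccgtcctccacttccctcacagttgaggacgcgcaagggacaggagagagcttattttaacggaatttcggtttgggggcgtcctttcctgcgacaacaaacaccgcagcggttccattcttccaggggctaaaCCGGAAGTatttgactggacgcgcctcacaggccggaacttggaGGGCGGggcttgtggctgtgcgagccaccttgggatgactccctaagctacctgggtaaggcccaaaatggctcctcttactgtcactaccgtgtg
Mrps6: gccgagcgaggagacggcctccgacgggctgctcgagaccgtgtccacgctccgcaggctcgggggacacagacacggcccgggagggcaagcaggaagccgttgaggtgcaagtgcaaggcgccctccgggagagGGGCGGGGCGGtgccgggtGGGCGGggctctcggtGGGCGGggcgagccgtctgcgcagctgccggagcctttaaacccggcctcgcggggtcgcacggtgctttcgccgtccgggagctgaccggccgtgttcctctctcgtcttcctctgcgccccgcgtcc
Mrpl51 had the ETS motif at bases 161 to 168 and a GC box at bases 205 to 210. Mrps6 had GC boxes starting at bases 137, 142, 156 and 172, the first 2 of which overlap by 1 base, and no other match.

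Start regions were at hand for 67 members, in 73 windows of 300 bases, since some genes have more than 1 start. Both strands were searched for the NRF1 core (GCGCATGC), the ETS motif (CCGGAAGT), the YY1 motif (AAGATGGC), the E-box (CACGTG), the GC box (GGGCGG), the CCAAT box (CCAAT) and the TATA box (TATAAA). NRF1, the ETS factor GABP and YY1 are regulators long linked to nuclear genes of mitochondria. The NRF1 core was in 11.0% of member windows and in 3.51% of the windows of protein-coding genes. The ETS motif was in 16.4% against 5.15%, and the YY1 motif in 16.4% against 3.05%. At least 1 of these was in 39.7% of member windows and in 11.0% of coding windows. The YY1 letters contain ATG and can be a start codon in its context. These letters lay on the strand of the gene and reached past its start in 8 of the 73 member windows (11.0%), and in 1.28% of coding windows.

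The other motifs were closer to the coding windows, at 9.59% against 7.84% for the E-box, 53.4% against 46.2% for the GC box and 39.7% against 38.2% for the CCAAT box. The TATA box was in 6.85% of member windows and 12.6% of coding windows. Over all windows, coding or not, the shares were 2.71% for the NRF1 core, 3.89% for the ETS motif, 2.75% for the YY1 motif, 7.15% for the E-box, 35.7% for the GC box, 37.4% for the CCAAT box and 13.6% for the TATA box. The median GC content was 58.7% in member windows and 56.3% in coding windows.

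Called members were too few to compare by motif. Windows were at hand for 5 that rose and 4 that fell. The ETS motif was in 3 of the 5 that rose (Mrpl18, Mrpl51 and Mrps18c), 0 of the 4 that fell and 9 of 58 not called. The NRF1 core was in 0 that rose, 1 that fell (Mrps18b) and 7 not called, and the YY1 motif in 12 members, all of them not called.

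**Figure D3:**
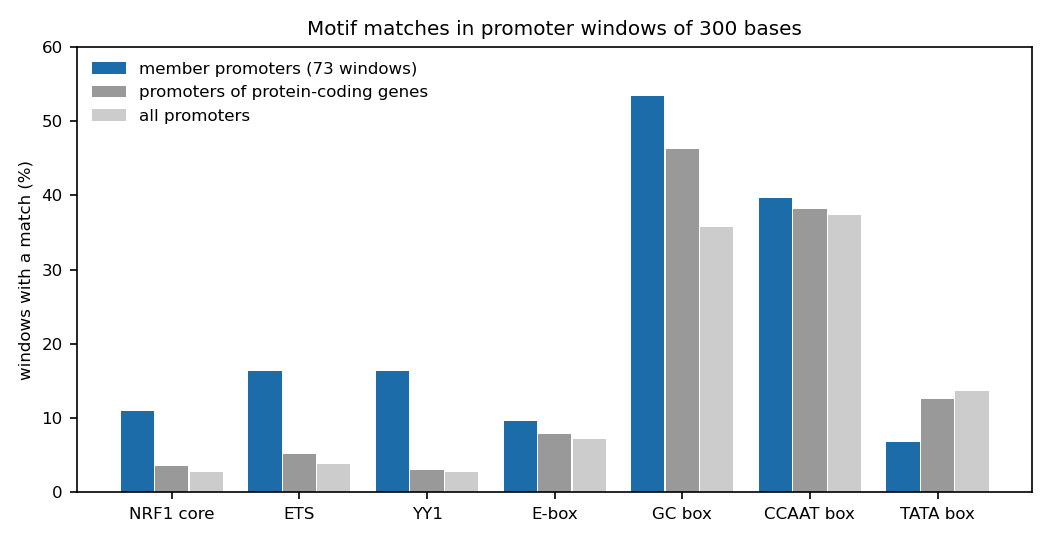
Bars give the share of 300-base start regions with at least 1 match to each of 7 motifs (y axis, percent) in member windows (blue), windows of protein-coding genes (dark grey) and all windows (light grey). The NRF1 core, the ETS motif and the YY1 motif are in 11.0%, 16.4% and 16.4% of member windows, against 3.51%, 5.15% and 3.05% of coding windows.

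Members often lay head to head with another gene. Of 67 members, 23 (34.3%) had the start of another protein-coding gene on the opposite strand within 1000 bases upstream, against 8.48% of 17491 coding genes. The closest pair was Mrpl21 and Ighmbp2, with starts 32 bases apart. Mrpl46 and Mrps11, 42 bases apart, are both members. Mrpl46 and Mrps11 were not called (differences 0.05 and 0.06). Other neighbours act in mitochondria too, among them the helicase gene Twnk beside Mrpl43, Ndufb5 beside Mrpl47, Ptcd2 beside Mrps27 and Sars2 beside Mrps12.

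Of the 23 pairs, 14 had differences of the same sign, with Mrpl46 and Mrps11 counted from both sides. Mrpl51 lies beside Ncapd2, a condensin subunit of dividing cells, with starts 614 bases apart. Ncapd2 stood at 6.07 and 5.87 in controls and at 7.88 and 7.94 under social threat. Ncapd2 rose by 1.94 (SE 0.10), and Mrpl51 by 0.51. Mrpl18 lies beside Tcp1, a subunit of the cytosolic chaperonin, which fell by 0.20 (SE 0.04) while Mrpl18 rose. Mrps18b and its neighbour Ppp1r10, a regulator of protein phosphatase 1, both fell, Ppp1r10 by 0.74 (SE 0.16) and from unequal control pools at 6.89 and 7.36. Their starts lie 756 bases apart. Beside members that were not called, Ska3 (0.88), Eme1 (0.60) and Psma2 (0.19) rose, and Gga3 (-0.42), Ptcd2 (-0.28) and Fau (-0.14) fell. The calls of Tcp1, Psma2, Eme1, Gga3 and Ptcd2 were lost without social threat pool 1 or 2, as was that of Ppp1r10 without social threat pool 2 and that of Ptcd2 without control pool 1, with adjusted p of up to 0.329. Without the variance trend the calls of Tcp1, Ppp1r10, Psma2, Fau and Ptcd2 were lost (adjusted p from 0.0561 to 0.325). In all, 4 of 23 neighbours rose and 5 fell, larger shares than the 9.4% and 11.7% of all genes. The neighbours were not set beside genes of like level, and the difference in shares was not tested.

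**Figure D4:**
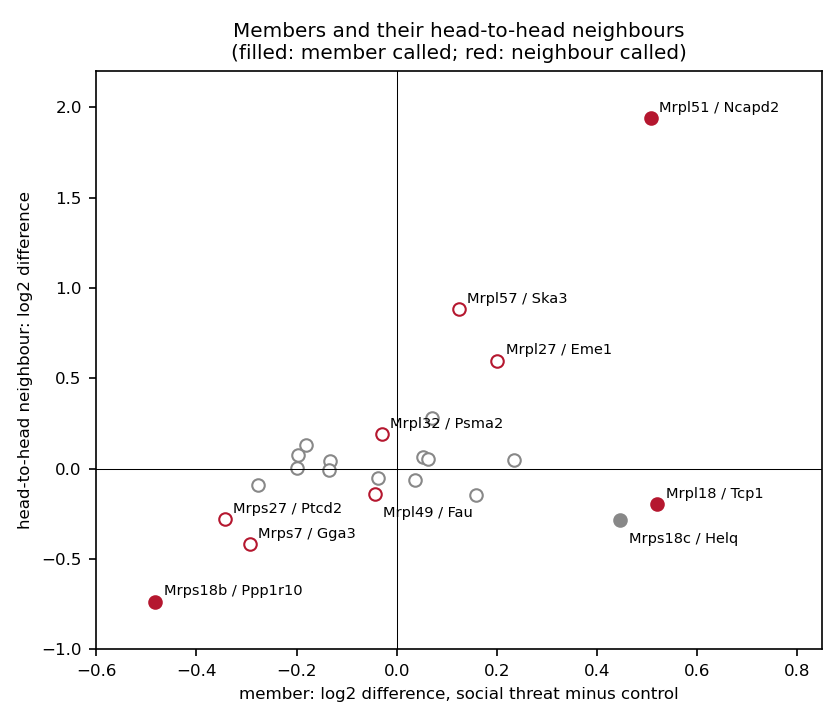
Each point is a member and its head-to-head neighbour, by the log2 difference of the member (x axis) and of the neighbour (y axis), social threat minus control. Filled points are called members and red points are called neighbours. Mrpl51 and Ncapd2 were both higher (0.51 and 1.94), while Mrpl18 was higher and Tcp1 lower (0.52 and -0.20).

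Members read by several probe sets gave no opposite calls, though their probe sets did not always agree in size or sign. There were 34 members with 1 probe set and 42 with more, up to 8, and of 156 probe sets in all 9 were called higher and 10 lower. None of the 76 members had probe sets called in both directions, which could not occur for the 34 with 1. For Mrpl39 the probe set used differed by -0.04 and a second, at 7.41 in controls, by 0.26, neither of them called. A probe set other than the one used fell for Mrpl9 (-0.48), Mrpl52 (-0.24 and -0.23) and Mrps25 (-0.48). The brighter probe sets used for these genes differed by -0.24, -0.16 and -0.13 and were not called. Mrpl52 was one of the members with the highest signal, with Mrpl33 and Mrps14. It stood at 10.08 and 9.96 in controls and at 9.87 and 9.86 under social threat. It was called with its probe sets averaged (-0.27, adjusted p = 0.0154) and without control pool 2 (-0.22, adjusted p = 0.0123). Mrpl33 stood at 10.16 and 9.95 in controls and at 10.04 and 10.01 under social threat, with no separation (difference -0.03, SE 0.07, adjusted p = 0.839).

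Mrps30, a large subunit protein in spite of its name, was just short of a call. It stood at 8.39 and 8.41 in controls and at 8.18 and 8.14 under social threat (difference -0.24, SE 0.07, adjusted p = 0.053). It was called with robust moderation (adjusted p = 0.0419), with only probe sets above the array median (0.0268), after renewed quantile normalization (0.0428), with 1 averaged value a gene (0.0136) and without control pool 1 (0.0493). Without social threat pool 1 or 2 its adjusted p was 0.281 or 0.389. Mrps36 stood at 7.55 and 7.49 in controls and at 7.64 and 7.50 under social threat, with overlapping groups (difference 0.06, SE 0.09). Mrpl30 and Mrpl53 have no probe set of their own and are not among the 76. A probe set shared by Mrpl30 and Gm6238 differed by -0.15 and was not called, and a dimmer one of the same pair rose by 0.39. The one shared by Mrpl53 and Ccdc142 differed by -0.03.

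Of 104 other genes of mitochondrial gene expression, import and biogenesis 20 were called, 2 higher and 18 lower. Over all genes 21.1% were called, 9.4% higher and 11.7% lower, so the share called in either direction was near that of all genes. By direction, the share higher was smaller and the share lower was larger than over all genes. Among genes in the members' range of level, 14.9% were called higher and 20.2% lower, and the share lower here was not larger than that. The 104 genes were not matched by level, and the split by direction was not tested. Mitoribosome subunits under other symbols fell for 1 of 4 (median -0.05), namely Gadd45gip1 by 0.34 (SE 0.10). Of 13 translation factors 0 rose and 1 fell (median 0.01), Lrpprc, which stabilises mitochondrial messages, by 0.36 (SE 0.10). Of 25 genes of mitoribosome assembly, 2 rose and 6 fell (median -0.07). Dhx30, an RNA helicase of mitochondrial RNA granules, had the largest difference. It stood at 8.07 and 8.09 in controls and at 7.19 and 7.27 under social threat, a fall of 0.85 (SE 0.08, limma adjusted p = 9.63e-05). Mterf4 and Nsun4 form 1 complex on the large subunit, and Mterf4 rose by 0.59 (SE 0.12) while the methyltransferase Nsun4 fell by 0.36 (SE 0.09). The rRNA methyltransferase genes Mrm1 and Mrm3 fell by 0.54 (SE 0.11) and 0.41 (SE 0.11), and Rbfa, a maturation factor of the small subunit, rose by 0.37 (SE 0.06).

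Of 16 mitochondrial tRNA synthetases 1 fell, Hars2 by 0.38 (SE 0.10), and 0 rose (median -0.12). Of 13 genes of mitochondrial DNA replication and transcription 2 fell (median -0.14). Polg2, the accessory subunit of the mitochondrial DNA polymerase, stood at 7.69 and 7.59 in controls and at 6.88 and 6.74 under social threat, a fall of 0.83 (SE 0.10, limma adjusted p = 0.000298). Top1mt fell by 0.51 (SE 0.13) from a level near the array median. Of 22 import genes 4 fell and 0 rose (median -0.10), Hspa9, the chaperone that pulls proteins into the matrix, by 0.49 (SE 0.07), Timm10 by 0.49 (SE 0.10), the chaperonin partner Hspe1 by 0.43 (SE 0.05) and Timm8a1 by 0.37 (SE 0.08). Among 11 regulators of mitochondrial biogenesis 3 fell and 0 rose (median -0.08), the coactivator gene Pprc1 by 0.64 (SE 0.09), Myc by 0.58 (SE 0.08) and Nrip1 by 0.38 (SE 0.08).

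Of the 20 genes called in these lists, 7 stayed called without each pool in turn, namely Dhx30, C1qbp, Polg2, Hspa9, Hspe1, Pprc1 and Myc. The other 13 lost their call without social threat pool 1, and most of them without social threat pool 2 or control pool 1 too, with adjusted p of up to 0.356. Of the 7, C1qbp (a fall of 0.30, SE 0.04) was not called without the variance trend (adjusted p = 0.0659). For the members, 5 of 11 stayed called in the same way, Mrpl44, Mrpl18, Mrpl51, Mrps18c and Mrps6.

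Related families outside the mitoribosome were called mostly in 1 direction each, with counts that depend strongly on the fit. Over all genes 9.4% were called higher and 11.7% lower. These families were not set beside genes of like level. Respiratory chain and ATP synthase subunits encoded in the nucleus rose for 23 of 82 (28.0%) and fell for 3 (3.66%), with a median of 0.09. Without the variance trend 1 of these calls was left, that of Ndufv3, and without social threat pool 1 or 2 there were 9 or 8 higher and 1 or 0 lower. Ndufv3, of complex I, rose by 0.62 (SE 0.05), Ndufs5 and Ndufb7, of the same complex, by 0.33 (SE 0.07) and 0.32 (SE 0.04), and the ATP synthase gene Atp5k by 0.30 (SE 0.04). The call of Ndufs5 was lost without social threat pool 1 or 2 (adjusted p of up to 0.178), and without the variance trend Ndufs5, Ndufb7 and Atp5k were not called (adjusted p from 0.0563 to 0.0778). The list of cytosolic ribosomal proteins was taken by symbol (Rpl or Rps and a digit) and also holds Rps19bp1, a gene named for binding Rps19. Rpl3l, Rpl39l and the probe set used for Rps16, at 3.30, 3.92 and 3.335 in controls, lay below the array median. Genes of this list fell for 27 of 47 (57.4%) and rose for 0, with a median of -0.12. Without the variance trend 2 were left, Rpl12 and Rps25, and without social threat pool 1 or 2 there were 16 or 7. Rpl12 fell by 1.03 (SE 0.13) and Rps25 by 0.46 (SE 0.07). Their control means of 6.72 and 9.10 lay far below the family's median level of 12.70 and 12.69 in the control pools. The call of Rps25 was lost without social threat pool 2 (adjusted p = 0.0552). The members' own median of -0.03 lay between these families. Differences between the families were not tested. Their counts of calls are not alike in precision, since bright probe sets had smaller SEs. Rpl19, at 12.99 in controls, was called at -0.21 (SE 0.025), while Mrpl11, at 8.61, was not called at -0.20 (SE 0.07). Over all of the lists outside the members, 25 genes rose and 48 fell, and without the variance trend these counts were 3 and 16. Without social threat pool 1 they were 9 and 24, and without social threat pool 2 they were 10 and 16.

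**Figure D5:**
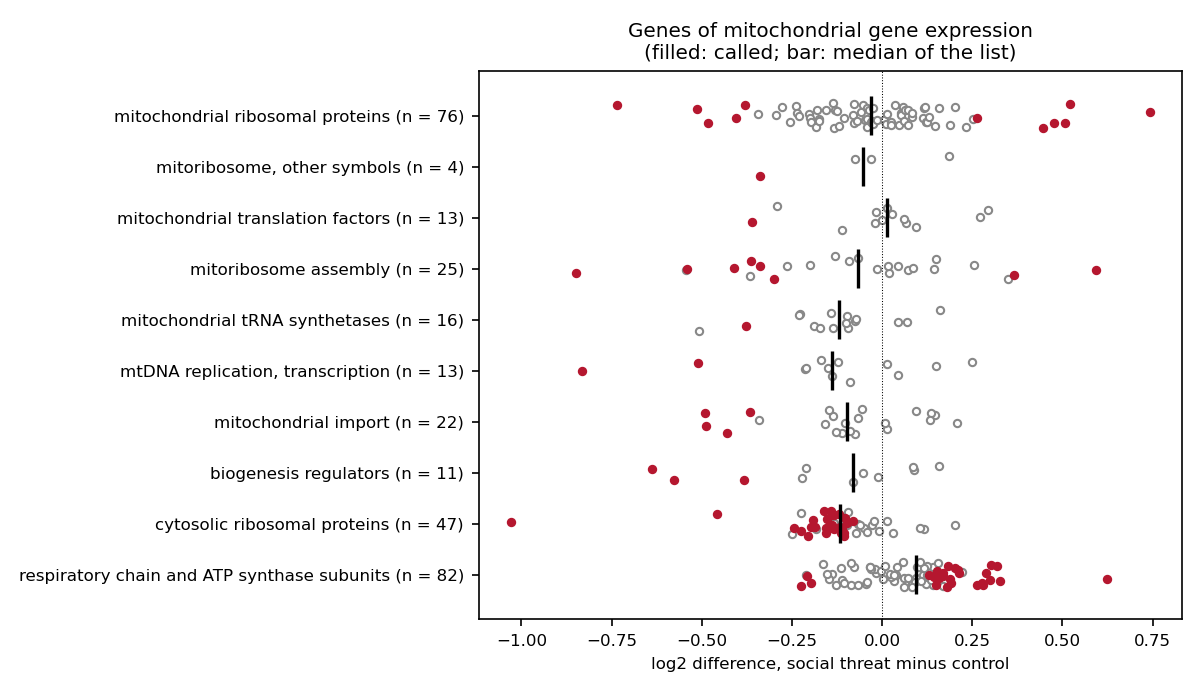
Genes are shown by log2 difference, social threat minus control (x axis), in 1 row per list, with filled red points for called genes and a bar at the median of the list. The medians are -0.03 for the mitochondrial ribosomal proteins, -0.12 for the cytosolic ribosomal proteins and 0.09 for the respiratory chain and ATP synthase subunits.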

How the data were processed

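The deposited values are log2 levels from RMA, as the labels' list of processing tools and the values themselves give it. The RMA version, the chip definition and the genome build are not given in the sources used here. RMA brings arrays to 1 distribution and compresses dim differences. The deposited table had 45037 probe sets on 4 arrays. Of these, 34945 had 1 gene symbol in the platform annotation, 932 several and 9160 none listed.

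Both groups entered 1 fit by limma 3.58.1 in R 4.3.3 (lmFit, eBayes with a mean-variance trend; residual degrees of freedom 2, prior 7.1), two-sided, over all probe sets, with Benjamini-Hochberg adjustment and calls at an adjusted p under 0.05. Rose and fell are used of called genes. The code was tested on simulated data. Intervals use the moderated SE at 95%. The precision is limited by the number of arrays.

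Values of each pool are given for the members with the largest called rises and falls, those of highest signal, the stalk and S18 members, Mrps12, Mrps30 and Mrps36, and named list genes are the called ones with the largest differences. Genes named for their position or for a second probe set, and Nsun4 and C1qbp, were added after values were seen. The members and lists were chosen with earlier results of these data known. Alternatives were the variance trend, robust moderation, a filter on dim probe sets, renormalization, the probe set used, stricter calls, leaving out each pool and the pool number as a block. Start regions were RefSeq's (GRCm38.p6), matched by symbol for 67 of 76 members.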

Additional observations from a re-analysis of the deposited data

How the results depend on the processing

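The median difference of the members was -0.03 with all pools and ran from -0.07 to 0.02 without 1 pool, so its sign was not fixed. In every setting run that could change it, it moved by less than the SD between pools of a group (0.056). For fits without 1 pool that SD comes from the same 2 pools a group, so a smaller move is no sign of stability. Calls of the members rose from 6 higher and 5 lower to 8 and 8 with only probe sets above the array median and to 6 and 9 with all probe sets of a gene averaged, where 7 of the 11 calls were kept. With the probe set of smallest p, 8 were lower. Leaving out 1 pool gave 4 to 11 higher and 2 to 13 lower. In the other lists the calls were 25 higher and 48 lower, 3 and 16 without the variance trend, and 9 to 30 higher and 16 to 66 lower without 1 pool. The large subunit median of -0.04 was -0.019 after renewed quantile normalization, 0.00 with probe sets averaged and -0.091 to 0.044 without 1 pool, and the small subunit median of -0.02 was -0.086 to 0.01 without 1 pool. Mrpl33 ran from -0.134 to 0.071 and Mrps36 from -0.014 to 0.128 without 1 pool, neither of them called. The causes were not tested. Pools that share a number did not deviate together (correlation 0.05 over all probe sets), so the numbers were not taken to pair them. With the pool number as a replicate block, 7 members were called higher and 7 lower, and all 11 calls were kept, with 27 higher and 52 lower in the other lists. The added calls included Mrps12 (adjusted p = 0.0439) and Mrps30 (adjusted p = 0.0465). With 2 pools a group, small differences of single members cannot be resolved.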
